A study of Mus musculus with 2 samples.

Results

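Tsc22d3, Fkbp5, Nr3c1, Per1 and Pik3ip1, 5 of the 27998 genes in the matrices, were followed as a group tied to glucocorticoid signalling and to restraint of phosphoinositide 3-kinase (PI3K). They were chosen by measured values of these same cells, the Tsc22d3 level in CD4 T cells at 12 weeks against 7 weeks, so that comparison is given as a description and supports nothing. The cells were CD45.1+ immune cells sorted by flow cytometry from pancreatic islets of female NOD/ShiLtJ mice, an inbred strain that develops autoimmune diabetes without treatment, with CD45.1 being the form of the leukocyte surface protein CD45 that this strain carries. The animals were 12 weeks or 7 weeks old, none had a stated treatment or engineered allele, and each age is represented by a single library made on the 10x Genomics Chromium droplet system with its 3' kit. The number of mice behind a library was not given, so a difference between ages cannot be told apart from a difference between 2 libraries.

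Glucocorticoids enter the cell and bind the receptor encoded by Nr3c1, which is held by the chaperone Hsp90 and then moves to the nucleus. Its classical targets in leukocytes include Tsc22d3, which encodes the glucocorticoid-induced leucine zipper protein (GILZ), Fkbp5, an Hsp90 co-chaperone that lowers the receptor's affinity for hormone, and Per1, a repressor of the circadian clock. Pik3ip1 encodes a membrane protein that binds and inhibits PI3K and is abundant in resting T cells, while Tsc22d3 is also a target of FOXO factors, which PI3K signalling keeps out of the nucleus.

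The genes, matched by identifier in GENCODE vM21 on GRCm38, are all protein coding. Tsc22d3 (ENSMUSG00000031431) lies on the minus strand of chromosome X from 140539528 to 140600659, and Fkbp5 (ENSMUSG00000024222) on the minus strand of chromosome 17 from 28399094 to 28517527. Per1 (ENSMUSG00000020893, 69095217 to 69109960) and Pik3ip1 (ENSMUSG00000034614, 3330401 to 3342971) both lie on the plus strand of chromosome 11. The fifth gene is Nr3c1 (ENSMUSG00000024431).

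Promoters of the members are printed below so that their letters can be read beside the values. They are RefSeq windows on GRCm38.p6, each 250 bases before and 50 bases after a transcript start, and 4 of the 5 genes had at least 1 window in the table. Tsc22d3 had 3 windows and Per1 had 2, and 1 window of each is shown. A UMI counted at the 3' end does not tell which start a transcript used. The 4 motifs searched on both strands, whose matches did not overlap, were the glucocorticoid receptor motif AGAACA, the response element core ACANNNTGT, the forkhead motif GTAAACA and the E-box CACGTG. Capitals mark a match.
Tsc22d3, chrX:140600473-140600772, minus strand: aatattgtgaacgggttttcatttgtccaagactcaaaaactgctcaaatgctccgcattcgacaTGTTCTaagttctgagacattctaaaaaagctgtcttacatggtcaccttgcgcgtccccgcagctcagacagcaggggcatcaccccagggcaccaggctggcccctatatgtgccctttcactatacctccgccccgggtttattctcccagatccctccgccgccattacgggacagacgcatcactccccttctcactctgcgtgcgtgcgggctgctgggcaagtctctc
Pik3ip1, chr11:3330481-3330780, plus strand: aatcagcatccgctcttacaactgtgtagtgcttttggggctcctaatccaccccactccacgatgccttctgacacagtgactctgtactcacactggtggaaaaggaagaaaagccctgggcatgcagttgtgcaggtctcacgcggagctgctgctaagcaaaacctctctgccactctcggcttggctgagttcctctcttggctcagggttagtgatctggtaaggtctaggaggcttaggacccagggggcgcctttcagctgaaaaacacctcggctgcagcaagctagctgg
Fkbp5, chr17:28486100-28486399, minus strand: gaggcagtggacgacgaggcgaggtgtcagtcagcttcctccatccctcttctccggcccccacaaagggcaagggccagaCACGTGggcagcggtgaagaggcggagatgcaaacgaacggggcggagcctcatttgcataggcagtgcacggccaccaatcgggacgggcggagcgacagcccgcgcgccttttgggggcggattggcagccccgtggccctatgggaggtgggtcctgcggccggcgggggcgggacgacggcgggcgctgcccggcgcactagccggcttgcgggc
Per1, chr11:69098699-69098998, plus strand: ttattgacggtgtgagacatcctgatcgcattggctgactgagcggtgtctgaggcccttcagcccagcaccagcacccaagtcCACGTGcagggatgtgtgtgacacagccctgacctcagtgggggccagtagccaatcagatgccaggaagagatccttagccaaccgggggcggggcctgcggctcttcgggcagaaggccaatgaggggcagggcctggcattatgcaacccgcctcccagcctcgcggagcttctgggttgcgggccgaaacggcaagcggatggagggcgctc
The Tsc22d3 window held 1 partial receptor motif, read on the opposite strand and beginning 185 bases before the transcript start. Of the 32851 promoter windows of the genome table, 19.0% held that partial motif. The E-box stood once in the Fkbp5 window, 169 bases before the start, and once in the Per1 window, 166 bases before it, against 7.15% of all windows. The Pik3ip1 window and the other windows of Tsc22d3 (starting at 140542619 and 140548522) and Per1 (starting at 69099902) held none of the 4 motifs. The response element core (6.85% of all windows) and the forkhead motif (3.65%) were in none of the 7 windows of these genes.

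The 12 week matrix held 2812 barcodes and 19288252 unique molecular identifiers (UMIs, 1 per counted transcript), and the 7 week matrix 1113 barcodes and 8701184 UMIs. After filtering, 2741 cells at 12 weeks and 1099 at 7 weeks remained, with a median of 4933 and 5643 UMIs per cell, and 2 barcode sequences occurred in both libraries. Cells were placed in 8 classes by UMI gates. CD4 T cells (Cd4 at least 1, Cd8a and Cd8b1 at 0) were split into CD4 naive-like cells, with a naive score (summed UMIs of Lef1, Igfbp4 and Dapl1) of at least 3, and CD4 other cells, with 2 or fewer. CD8 T cells (Cd8a and Cd8b1 together at least 2, Cd4 at 0) were split into Ccl5-low cells, with 3 or fewer UMIs of the chemokine Ccl5, and Ccl5-high cells, with at least 10. The remaining classes were Ncr1+ cells (at least 1 UMI of the NKp46 receptor gene), Cd79a+ B cells (at least 2), C1q+ myeloid cells (at least 10 UMIs of C1qa, C1qb and C1qc) and Cst3-high myeloid cells (Cst3 at least 10, C1q below that gate). The classes held 2208 of the cells at 12 weeks and 844 at 7 weeks, of which 117 and 68 were in more than 1 class.

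The markers fitted some of these names better than others. T cell markers had a UMI in nearly all CD4 and CD8 cells, naive T cell markers summed to 9.35 UMIs per 10000 at 12 weeks and 7.02 at 7 weeks in CD4 naive-like cells, and effector genes to 49.3 and 39.7 in CD8 Ccl5-high cells. The Ncr1+ class was not a pure natural killer class, since 82.7% of its cells at 12 weeks and 83.2% at 7 weeks had a Cd3d, Cd3e or Cd3g UMI. The Cst3-high class was mixed: 48.9% and 64.4% of its cells had such a CD3 UMI, plasma cell markers summed to 100 and 63.9 UMIs per 10000, and 5 barcodes at 12 weeks and 1 at 7 weeks held at least 100 UMIs of islet hormones. The CD4 other class carried macrophage markers at 23.3 UMIs per 10000 at 12 weeks and 3.16 at 7 weeks, and 1 of its barcodes at 12 weeks was rich in islet hormones. The C1q+ class had only 34 cells at 12 weeks and 11 at 7 weeks, so its values rest on few cells. It was also mixed, since 41.2% of its cells at 12 weeks and 81.8% at 7 weeks had a CD3 UMI. Of its cells, 12 at 12 weeks and 4 at 7 weeks were also in another class. Its ratios were combined over strata of cell depth but not recomputed under the other settings. In B cells B cell markers summed to 35.6 and 28.9 UMIs per 10000 and plasma cell markers to 88.2 and 76.7, and 28.3% of these cells at 12 weeks and 37.2% at 7 weeks had a CD3 UMI. CD4 naive-like cells held fewer transcripts of several other cell types at 12 weeks than at 7 weeks, with natural killer markers at 1.38 and 4.67 UMIs per 10000, macrophage markers at 4.47 and 9.38, plasmacytoid dendritic cell markers at 1.34 and 3.42, effector genes at 2.46 and 4.02 and regulatory T cell markers at 1.26 and 2.15. CD8 Ccl5-low cells carried naive markers at 7.72 and 7.18, effector genes at 12.0 and 11.7, natural killer markers at 12.8 and 9.63 and plasmacytoid dendritic cell markers at 8.86 and 4.90 UMIs per 10000, a mixture that the name naive would not cover.

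**Figure D1:**
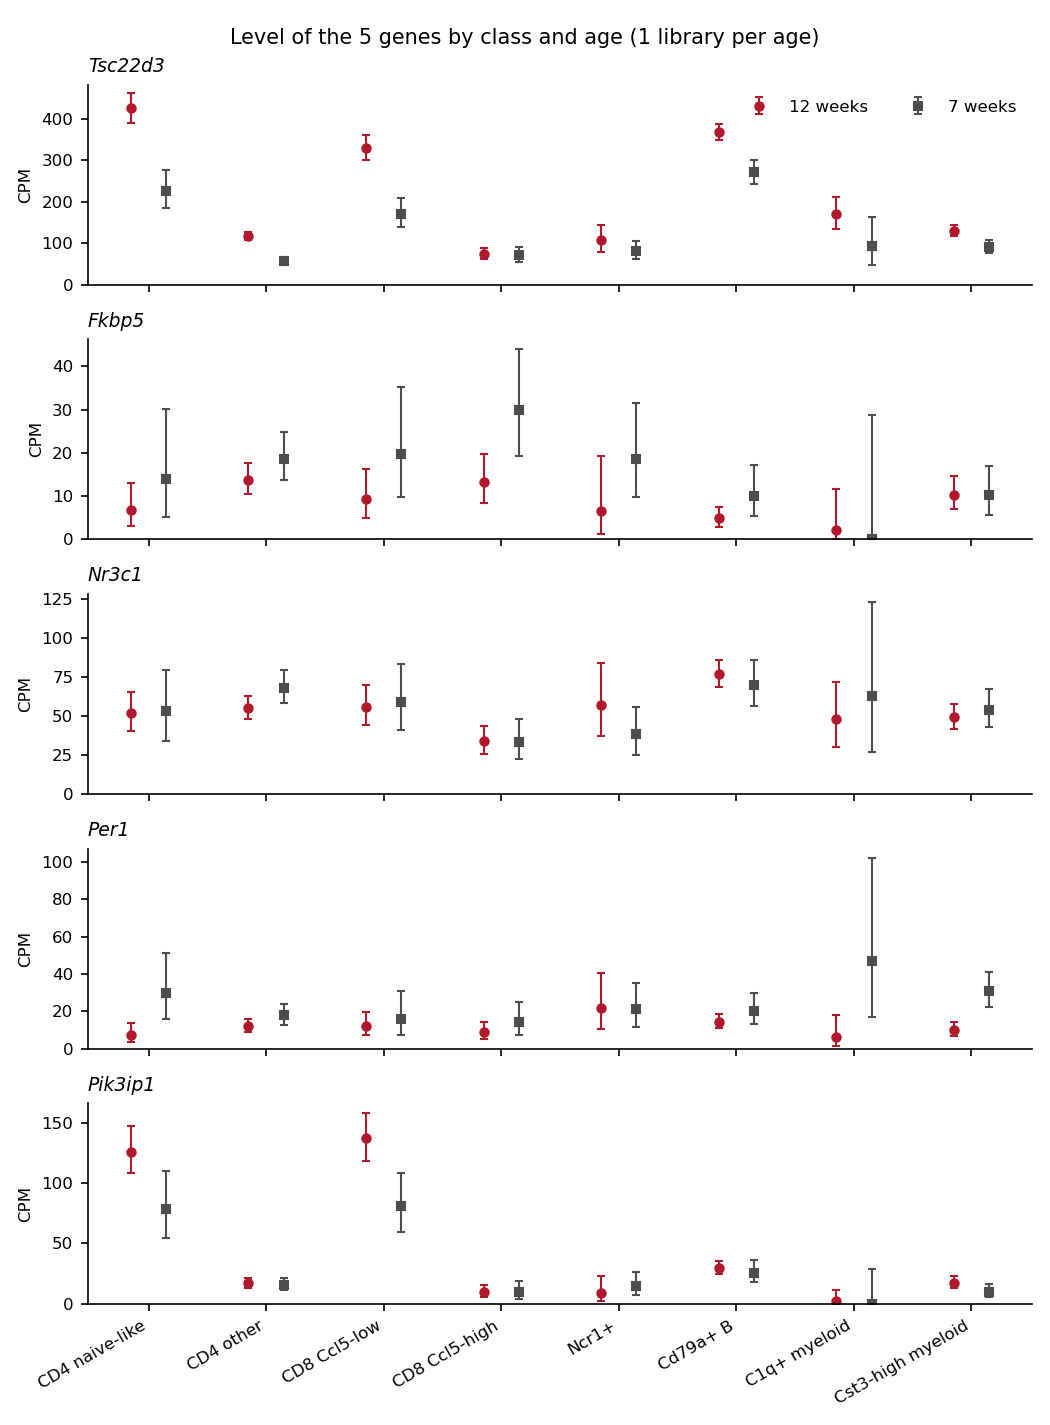
Level of each gene in CPM, UMIs per 1000000 UMIs of the class, for 8 classes, with 12 weeks as red circles and 7 weeks as grey squares; bars are exact Poisson 95% intervals for counting error. Tsc22d3 at 12 weeks lay above 7 weeks in all 8 classes, Fkbp5 and Per1 mostly below, and Pik3ip1 stood highest in CD4 naive-like and CD8 Ccl5-low cells at both ages.

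Tsc22d3, the leucine zipper gene, was higher at 12 weeks than at 7 weeks in 8 of 8 classes, by at least 1.5-fold in 4 of them, one of which is the small C1q+ class. The interval lay above 1 in 5 classes, and the CD8 Ccl5-high ratio was on the other side of 1 under 6 other settings. In CD4 naive-like cells it had 560 UMIs, or 425 CPM (UMIs per 1000000 UMIs of the class, exact 95% interval for counting error 391 to 462), at 12 weeks and 98 UMIs, or 226 CPM (184 to 276), at 7 weeks, a ratio of 1.88 (1.51 to 2.35). In CD4 other cells the level was 117 CPM at 12 weeks, against 56.8 CPM at 7 weeks, a ratio of 2.07 (1.71 to 2.51). These are the values that chose the genes. Both CD4 classes are among the 8, the 4 and the 5 classes counted above, and their part in those counts supports nothing. Among all genes with at least 20 UMIs, 12.5% were at least 1.5-fold higher at 12 weeks in CD4 naive-like cells and 8.78% in CD4 other cells, and 93.9% and 97.0% of genes had a lower ratio than Tsc22d3.

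CD8 T cells divided by their Ccl5 level. In Ccl5-low cells Tsc22d3 stood at 329 CPM (300 to 361) at 12 weeks, against 170 CPM (138 to 208) at 7 weeks, a ratio of 1.93 (1.54 to 2.44). Of all genes measured in that class, 12.6% were at least 1.5-fold higher at 12 weeks, and 94.7% had a lower ratio than Tsc22d3. In Ccl5-high cells, which carry the effector genes, the levels were 74.5 CPM at 12 weeks, against 70.5 CPM at 7 weeks, with a ratio of 1.06 (0.773 to 1.46). That interval includes no difference, and 11.2% of genes there were at least 1.5-fold higher. Without T cells holding a B cell marker UMI this ratio was 0.815 (0.576 to 1.17). The intervals of the 2 CD8 ratios did not overlap, though they carry counting error alone and the difference between the classes was not tested. At 7 weeks, 5 cells held 36.8% of the Tsc22d3 UMIs of the Ccl5-low class, and without the 5 highest cells of each library the ratio was 2.63 (2.0 to 3.5).

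B cells, marked by the receptor component Cd79a, had 1515 Tsc22d3 UMIs, or 369 CPM (350 to 388), at 12 weeks and 348 UMIs, or 271 CPM (243 to 301), at 7 weeks. The ratio of 1.36 (1.21 to 1.53) did not reach 1.5-fold, which 10.1% of genes did in that class. Cst3-high myeloid cells gave 130 CPM at 12 weeks, against 90.8 CPM at 7 weeks, with a ratio of 1.43 (1.17 to 1.75), against 13.6% of genes at 1.5-fold or more. Ncr1+ cells had 108 CPM and 81.0 CPM, with a ratio of 1.33 (0.889 to 1.98) that includes no difference, and 12.7% of their genes were at least 1.5-fold higher. Under 15 other settings the Ncr1+ ratio ran from 1.12 to 1.97. Its interval lay above 1 with stricter gates (1.97, 1.21 to 3.26) and in exclusive classes (1.77, 1.09 to 2.89). The same held without cells with a B cell marker UMI (1.95, 1.24 to 3.07) and without doublet removal (1.51, 1.03 to 2.20). Elsewhere it included 1, as over strata of cell depth (1.12, 0.751 to 1.68). The few C1q+ cells had 82 UMIs, or 170 CPM, at 12 weeks and 12 UMIs, or 93.7 CPM, at 7 weeks, a ratio of 1.82 (0.986 to 3.66), in a class where 21.8% of genes were at least 1.5-fold higher.

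Within each age the order of the classes was similar at the top and unlike at the bottom. At 12 weeks Tsc22d3 descended through CD4 naive-like, Cd79a+ B and CD8 Ccl5-low cells, and each of these 3 steps exceeded counting error, with ratios to the next class of 1.15 (1.04 to 1.27), 1.12 (1.01 to 1.25) and 1.93 (1.53 to 2.48). The third of these is the step to the few C1q+ cells. Further down, Cst3-high, CD4 other and Ncr1+ cells did not differ from each other as neighbours beyond that error, and CD8 Ccl5-high cells were last, with Ncr1+ cells 1.45-fold above them (1.02 to 2.02). At 7 weeks B cells were first at 271 CPM (243 to 301) and CD4 other cells last at 56.8 CPM (47.8 to 67.0), with intervals far apart. No neighbouring pair in that order differed beyond counting error. These orders were not matched for cell depth. At 12 weeks the median cell held 4590 UMIs in the CD4 naive-like class and 12902 in the C1q+ class. Among 12 week cells with 9000 or more UMIs, CD4 naive-like cells had 135 CPM, B cells 121 and CD8 Ccl5-low cells 132. C1q+ cells had 165 CPM and Cst3-high cells 123 at that depth, so the order at the top was not kept.

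Shares of cells that held the transcript were higher at 12 weeks in the same T and B cell classes as the totals. After each cell was thinned to 3000 UMIs, 66.8% of CD4 naive-like cells (60.5% to 72.7%) had a Tsc22d3 UMI at 12 weeks and 48.3% (35.2% to 61.6%) at 7 weeks. The shares were 30.8% and 13.1% in CD4 other cells, 56.3% and 39.2% in CD8 Ccl5-low cells, and 62.5% and 50.3% in B cells. In CD8 Ccl5-high cells they were 19.7% at 12 weeks and 19.3% at 7 weeks. Cells with 3 or more Tsc22d3 UMIs made up 22.5% of CD4 naive-like cells at 12 weeks and 8.33% at 7 weeks. Thinning left out 53 shallower cells at 7 weeks and 0 at 12 weeks. Without thinning, the shares were 81.6% at 12 weeks and 63.9% at 7 weeks in CD4 naive-like cells, 44.0% and 28.0% in CD4 other cells, 68.8% and 51.3% in CD8 Ccl5-low cells, 76.7% and 66.1% in B cells, and 33.9% and 40.7% in CD8 Ccl5-high cells. No class here is known to lack these transcripts, so no background share could be read beside them.

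**Figure D2:**
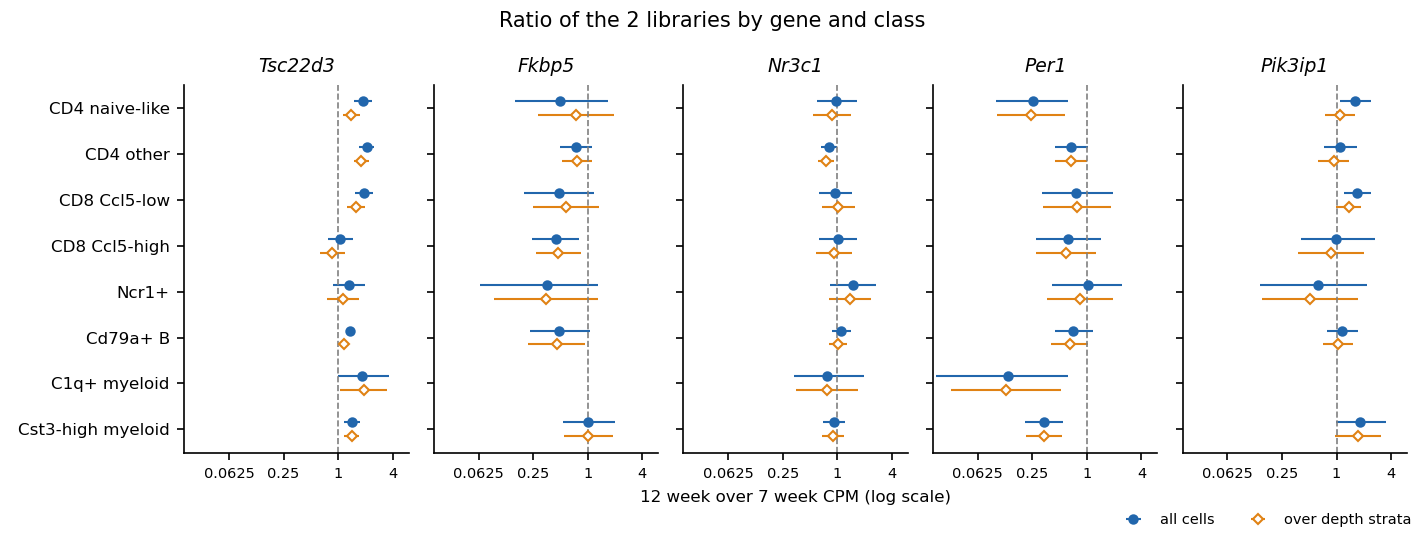
Ratio of the 12 week to the 7 week level for each gene (panels) and class (rows) on a log scale, from all cells (filled circles, exact 95% intervals) and combined over 5 strata of cell depth (open diamonds); the dashed line marks no difference. Tsc22d3 lies at or right of the line in most classes, Fkbp5 and Per1 left of it, and depth stratification brings the Tsc22d3 and Pik3ip1 ratios of CD4 naive-like and CD8 Ccl5-low cells nearer to 1.

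The depth of a cell moved with its Tsc22d3 level, and depth differed between the libraries. In CD4 naive-like cells at 12 weeks Tsc22d3 was 626 CPM in cells under 4000 UMIs, 518 CPM in the stratum starting at 4000, 432 CPM in that starting at 5000, 245 CPM in that starting at 6500 and 135 CPM at 9000 or more. At 7 weeks the same strata gave 298, 427, 339, 140 and 80.7 CPM. The median cell of this class held 4590 UMIs at 12 weeks and 5596 at 7 weeks, and 53 of 244 cells at 12 weeks were under 4000 UMIs, against 6 of 61 at 7 weeks. B cells had the same slope, with 708 CPM under 4000 UMIs and 121 CPM at 9000 or more at 12 weeks, and 630 and 98.4 CPM at 7 weeks.

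Within strata the 12 week level remained higher in T cells outside the Ccl5-high class. Combined over the 5 strata, the Tsc22d3 ratio was 1.39 (1.12 to 1.73) in CD4 naive-like cells, 1.79 (1.48 to 2.17) in CD4 other cells and 1.57 (1.26 to 1.97) in CD8 Ccl5-low cells. In B cells it was 1.16 (1.03 to 1.31), in Ncr1+ cells 1.12 (0.751 to 1.68) and in CD8 Ccl5-high cells 0.865 (0.631 to 1.18). Cst3-high cells, most of which held 9000 or more UMIs, kept a ratio of 1.41 (1.16 to 1.72). The few C1q+ cells had 1.91 (1.05 to 3.48), against 1.82 (0.986 to 3.66) without strata. In CD4 other cells each of the 5 strata had the higher level at 12 weeks, for instance 144 CPM at 12 weeks, against 53.3 CPM at 7 weeks in the stratum starting at 5000 UMIs.

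**Figure D3:**
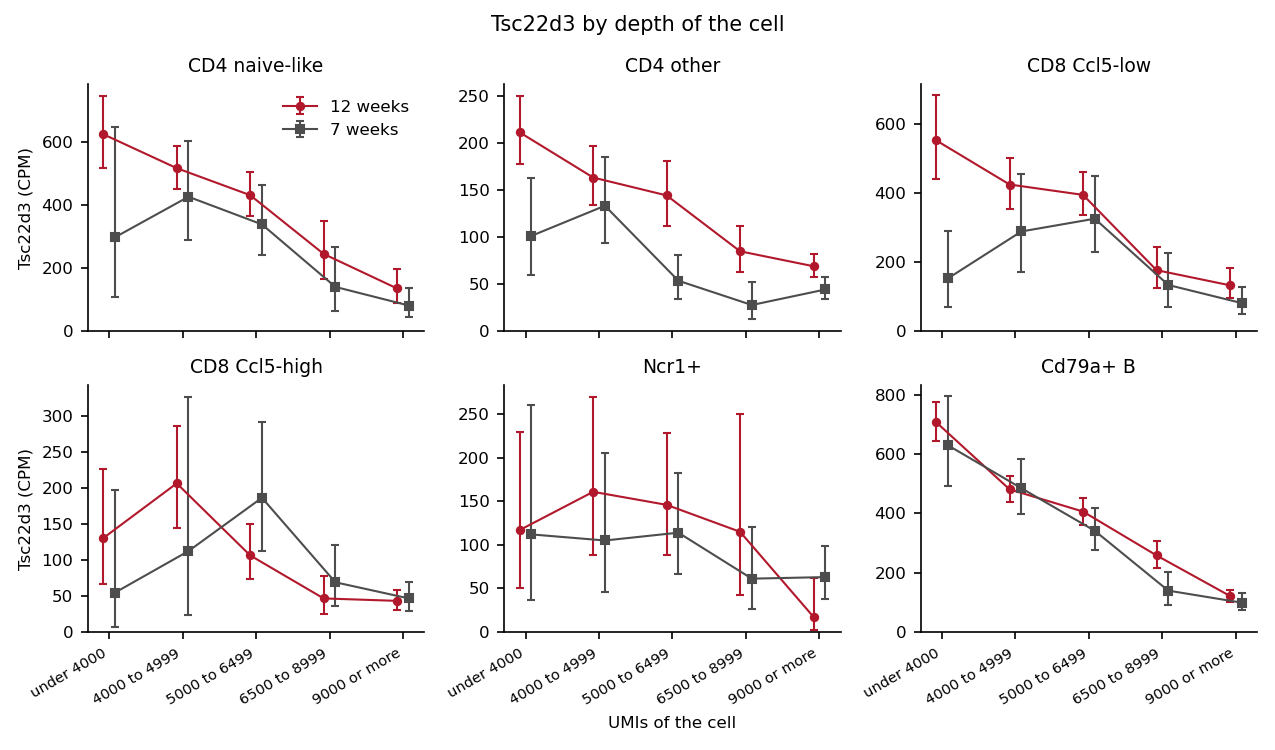
Tsc22d3 level in CPM (vertical axis) by the number of UMIs of the cell (horizontal axis, 5 strata) in 6 classes, with 12 weeks in red and 7 weeks in grey; bars are exact Poisson 95% intervals. In B cells the level descends with depth at both ages, and the 12 week line is above the 7 week line in every stratum of CD4 other cells.

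The make-up of the 2 CD4 classes was checked in the same way. In CD4 naive-like cells in no other class and with a CD3 UMI, 241 cells at 12 weeks and 58 at 7 weeks, macrophage markers stood at 0.562 and 0.296 UMIs per 10000 and Tsc22d3 at 422 CPM and 237 CPM, a ratio of 1.78 (1.42 to 2.26). The CD4 other ratio moved further. With cells of more than 1 class left out and a CD3 UMI required, 558 cells at 12 weeks and 270 at 7 weeks remained, and macrophage markers stood at 0.586 and 0.388 UMIs per 10000. Tsc22d3 was then 112 CPM at 12 weeks, against 38.3 CPM at 7 weeks, a ratio of 2.92 (2.28 to 3.78). CD4 T cells with a UMI of Foxp3, the regulatory T cell factor, had 131 CPM at 12 weeks (59 cells) and 63.2 CPM at 7 weeks (51 cells), a ratio of 2.07 (1.33 to 3.26).

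Tsc22d3 was higher in cells with a naive score of 3 or more than in cells below it, in both T cell lineages and at both ages. At 12 weeks CD4 T cells with a score of 0, of 1 to 2, of 3 to 5 and of 6 or more had 114, 125, 262 and 496 CPM, and at 7 weeks 49.7, 70.3, 171 and 260 CPM. The ratio in these 4 groups was 2.29, 1.78, 1.54 and 1.91, and at a score of 3 to 5 its interval was 1.0 to 2.42. CD8 T cells had 80.1, 117, 306 and 378 CPM at 12 weeks and 74.0, 69.7, 192 and 149 CPM at 7 weeks. Their ratio was 1.08 (0.784 to 1.51) at a score of 0 and 2.54 (1.82 to 3.64) at 6 or more.

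**Figure D4:**
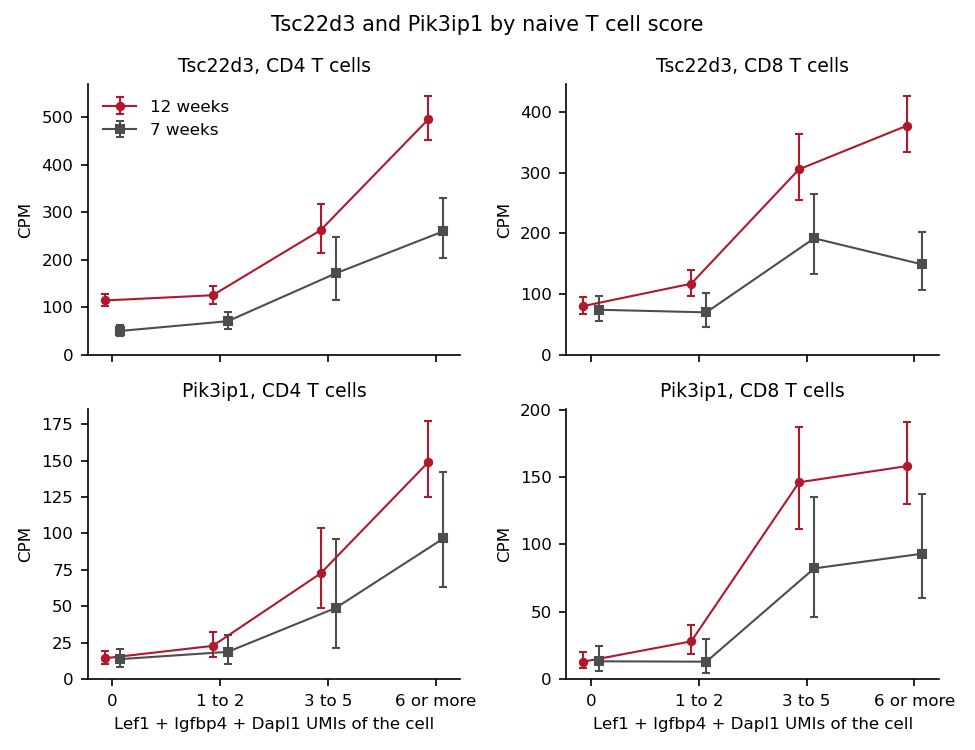
Tsc22d3 (top) and Pik3ip1 (bottom) in CPM by naive score, the summed Lef1, Igfbp4 and Dapl1 UMIs of the cell, in CD4 (left) and CD8 (right) T cells, with 12 weeks in red and 7 weeks in grey; bars are exact Poisson 95% intervals. Both genes are highest in cells with a score of 3 or more, and the ages coincide for both genes in CD8 cells with a score of 0.

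Pik3ip1, the PI3K inhibitor gene, was the one other member that was at least 1.5-fold higher at 12 weeks in CD4 naive-like and CD8 Ccl5-low cells. Its interval lay above 1 in those 2 classes. Tsc22d3 had 5 such classes, but 2 of them are the CD4 classes whose Tsc22d3 values chose the genes, so the tallies are not compared. CD4 naive-like cells had 166 UMIs, or 126 CPM (108 to 147), at 12 weeks and 34 UMIs, or 78.5 CPM (54.4 to 110), at 7 weeks, a ratio of 1.61 (1.1 to 2.40). CD8 Ccl5-low cells had 137 CPM (118 to 158) and 80.7 CPM (58.9 to 108), a ratio of 1.69 (1.22 to 2.40). Over depth strata these ratios were 1.09 (0.746 to 1.58) and 1.36 (0.976 to 1.88), and both intervals then included 1. In cells of a single class with a CD3 UMI they were 1.45 (0.991 to 2.17) and 1.64 (1.17 to 2.35). The part of the effector, natural killer and plasmacytoid dendritic cell transcripts of the CD8 Ccl5-low class in its ratio was not tested further. Without cells holding 10 or more immediate early and heat shock UMIs, 28 CD8 Ccl5-low cells at 12 weeks and 5 at 7 weeks were left, with a ratio of 1.13 (0.342 to 5.90).

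In the other lymphoid classes with at least 20 UMIs the Pik3ip1 intervals included 1. CD4 other cells had 17.0 CPM at 12 weeks, against 15.4 CPM at 7 weeks, with a ratio of 1.1 (0.735 to 1.68), and B cells had 29.5 and 25.7 CPM, with a ratio of 1.15 (0.775 to 1.74). In the B cells lower in immediate early and heat shock genes the ratio was 1.88 (0.858 to 4.86), and without the cells holding 10 or more of those UMIs it was 1.97 (0.313 to 81.8). CD8 Ccl5-high cells had 9.38 and 9.56 CPM, from 17 and 8 UMIs. In Cst3-high cells the ratio was 1.82 (0.999 to 3.55) from 54 and 14 UMIs, and 38.9% of the UMIs at 12 weeks came from 5 cells. Ncr1+ cells had 4 UMIs at 12 weeks and 10 at 7 weeks. C1q+ cells had 1 UMI at 12 weeks and 0 at 7 weeks, where the floor of 3 counts is 23.4 CPM. The step from CD4 naive-like to B cells, 4.28-fold (3.37 to 5.46) at 12 weeks and 3.06-fold (1.84 to 5.09) at 7 weeks, was the widest in the order of its levels among the classes with at least 20 UMIs.

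Pik3ip1 differed more between low and high naive scores than between the ages. At 12 weeks it had 14.3, 22.8, 72.5 and 149 CPM in CD4 T cells from the lowest to the highest of the 4 score groups, and at 7 weeks 13.7, 18.7, 48.8 and 96.6 CPM. CD8 T cells gave 12.9, 28.0, 146 and 158 CPM at 12 weeks and 13.2, 12.9, 82.1 and 93.0 CPM at 7 weeks. Tsc22d3 and Pik3ip1 UMIs met in the same thinned cells at counts near or above those from their separate shares in most T and B cell classes. In CD4 naive-like cells 57 held both at 12 weeks and 8 at 7 weeks, against 54.8 and 5.80 from the product of the shares. The counts were 44 and 10 in CD8 Ccl5-low cells, against 38.8 and 6.27, and 43 and 12 in B cells, against 42.5 and 10.6. In CD4 other cells they were 14 and 3, against 9.55 and 2.22, and in CD8 Ccl5-high cells 1 and 4, against 1.58 and 0.964. These differences were not tested.

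Fkbp5, the co-chaperone gene, ran the other way. Its level at 12 weeks was below that at 7 weeks in 4 of the 5 classes with at least 20 UMIs, with ratios between 0.444 and 1.01. CD8 Ccl5-high cells had 24 UMIs, or 13.2 CPM (8.49 to 19.7), at 12 weeks and 25 UMIs, or 29.9 CPM (19.3 to 44.1), at 7 weeks, a ratio of 0.444 (0.243 to 0.809). Without depth strata this was the one class whose interval lay off 1. Of the genes measured in that class, 9.86% were at least 1.5-fold lower at 12 weeks. 5 cells held 56.0% of the 7 week UMIs there, so few cells carry this value. CD4 other cells had 57 and 46 UMIs, or 13.7 and 18.7 CPM, with a ratio of 0.733 (0.488 to 1.11).

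Elsewhere Fkbp5 rested on very few UMIs. CD8 Ccl5-low cells had 13 UMIs at 12 weeks and 11 at 7 weeks (ratio 0.479, 0.198 to 1.18), and B cells had 20 and 13 (0.481, 0.228 to 1.05). Among the 13 UMIs of B cells at 7 weeks, 1 cell held 5. With cells of more than 1 class left out, the B cell ratio was 1.03 (0.368 to 3.54), which turns its direction. Combined over depth strata the B cell ratio was 0.457 (0.221 to 0.945), with an interval below 1. Cst3-high cells had 10.3 CPM at 12 weeks, against 10.2 CPM at 7 weeks, with a ratio of 2.61 (0.910 to 10.3) once cells of more than 1 class were left out. C1q+ cells had 1 UMI and 0 UMIs. CD4 naive-like cells had 9 and 6 UMIs and Ncr1+ cells 3 and 13, under the 20 UMIs that a class needed to be counted. No 2 neighbouring classes differed beyond counting error in the order of the Fkbp5 levels at either age. Further apart in that order, the 12 week intervals of CD4 other cells (10.4 to 17.7) and B cells (2.97 to 7.52) did not overlap.

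Per1, the clock repressor gene, was also lower at 12 weeks, in 6 of the 7 classes with at least 20 UMIs. CD4 naive-like cells had 10 UMIs, or 7.60 CPM (3.64 to 14.0), at 12 weeks and 13 UMIs, or 30 CPM (16 to 51.4), at 7 weeks, a ratio of 0.253 (0.0993 to 0.624). Cst3-high cells had 32 UMIs, or 10.3 CPM (7.07 to 14.6), and 45 UMIs, or 30.7 CPM (22.4 to 41.1), a ratio of 0.336 (0.207 to 0.541). At least 1.5-fold lower at 12 weeks were 16.4% of genes in CD4 naive-like cells and 12.2% in Cst3-high cells. A lower ratio than that of Per1 was found for 0.749% of genes in CD4 naive-like cells and 1.22% in Cst3-high cells. Depth strata left both values near these, at 0.241 (0.101 to 0.577) and 0.335 (0.214 to 0.527).

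The remaining classes gave intervals for Per1 that included 1, apart from the C1q+ cells with 3 UMIs at 12 weeks and 6 at 7 weeks (0.133, 0.0215 to 0.622). CD4 other cells had 12.0 CPM at 12 weeks, against 17.9 CPM at 7 weeks, with a ratio of 0.672 (0.439 to 1.03). B cells had 14.4 and 20.2 CPM, with a ratio of 0.710 (0.440 to 1.17). Ncr1+ cells had 22.0 and 21.3 CPM, with a ratio of 1.03 (0.414 to 2.45). At 7 weeks the highest Per1 levels were in the C1q+, Cst3-high and CD4 naive-like classes, at 46.9, 30.7 and 30 CPM, and at 12 weeks those 3 classes had 6.23, 10.3 and 7.60 CPM.

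Nr3c1, the receptor gene itself, was close to level across the ages. Its ratio ran from 0.764 to 1.49 over the 8 classes, none at 1.5-fold in either direction. CD4 other cells had 230 UMIs, or 55.2 CPM (48.3 to 62.8), at 12 weeks and 168 UMIs, or 68.2 CPM (58.3 to 79.3), at 7 weeks, a ratio of 0.810 (0.661 to 0.994), the one interval that lay off 1. Combined over depth strata that ratio was 0.744 (0.608 to 0.911). Without cells holding 10 or more immediate early and heat shock UMIs, which left 78 and 18 cells, that ratio was 1.3 (0.494 to 4.33), and in B cells, with 133 and 14 cells left, it was 0.799 (0.362 to 2.08). B cells had the highest level at both ages, 76.7 CPM at 12 weeks, against 70.0 CPM at 7 weeks, and CD8 Ccl5-high cells the lowest, 33.7 and 33.5 CPM. CD4 naive-like cells had 51.6 and 53.1 CPM, with a ratio of 0.972 (0.598 to 1.63). CD8 Ccl5-low cells had 55.9 and 59.2 CPM, with a ratio of 0.945 (0.621 to 1.47). In CD8 Ccl5-high cells thinning to 3000 UMIs gave a ratio of 0.544 (0.261 to 1.16), against 1.01 from all UMIs. No 2 neighbouring classes differed beyond counting error at either age. The 12 week intervals of the highest and lowest class, B cells (68.4 to 85.6) and CD8 Ccl5-high cells (25.8 to 43.3), did not overlap.

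By class, more than 1 member was higher in few places. Among members with at least 20 UMIs, 2 of 4 in CD4 naive-like cells and 2 of 5 in CD8 Ccl5-low cells were at least 1.5-fold higher at 12 weeks, in each case Tsc22d3 and Pik3ip1, and 1 in each was at least 1.5-fold lower. Of all genes, 12.5% were that far higher and 16.4% lower in CD4 naive-like cells, and 12.6% were higher in CD8 Ccl5-low cells. CD4 other cells had 1 of 5 higher and 0 lower, where 8.78% of genes were higher and 9.49% lower. That 1 is Tsc22d3, whose CD4 T cell values chose the genes and which is also counted in CD4 naive-like cells. The counts of these 2 CD4 classes are therefore a description and support nothing. CD8 Ccl5-high cells had 0 of 5 higher and 2 lower, against 11.2% and 9.86% of genes, and Cst3-high cells 1 higher and 1 lower, against 13.6% and 12.2%. In B cells 0 of 5 were higher and 1 lower, against 12.1% of genes lower, and in Ncr1+ cells 0 of 3 differed that far, against 13.6% of genes lower. The member lower in CD8 Ccl5-low cells was Fkbp5, where 13.6% of genes were lower, and C1q+ cells had 1 of 2 higher and 0 lower, where 18.2% of genes were lower. Over all kept cells the ratio was 1.81 (1.69 to 1.94) for Tsc22d3, 1.7 (1.46 to 1.99) for Pik3ip1, 1.01 (0.910 to 1.13) for Nr3c1, 0.669 (0.535 to 0.839) for Fkbp5 and 0.563 (0.459 to 0.692) for Per1, values that also take in the unlike shares of the classes at the 2 ages.

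The list of genes known to respond to glucocorticoids had a median below 0 on the log2 scale in 6 of the 8 classes. The list held 26 genes, with Tsc22d3, Fkbp5 and Per1 among them, and these members are part of its counts and medians. In CD4 other cells 7 of the 20 measured were above 1 and 13 below, and the median log2 ratio was -0.12, against 0.03 over all genes. There 4 were at least 1.5-fold higher and 1 lower, against 8.78% and 9.49% of all genes. Tsc22d3, whose value there chose the genes, is 1 of those 4. At that fold, 2 were higher and 3 lower of 12 in CD4 naive-like, and 3 and 4 of 14 in CD8 Ccl5-low cells. The counts were 1 and 3 of 14 in CD8 Ccl5-high, 1 and 1 of 14 in Ncr1+, and 1 and 7 of 18 in B cells. They were 2 and 5 of 12 in C1q+ and 0 and 5 of 21 in Cst3-high cells. Of all genes, 10.1% to 21.8% were that far higher and 9.86% to 18.2% lower in these classes. Medians were -0.25 in CD4 naive-like, -0.15 in CD8 Ccl5-low, -0.40 in CD8 Ccl5-high, -0.49 in B and -0.50 in C1q+ cells. In Ncr1+ cells the median was 0.07, with 9 of 14 above 1, and in Cst3-high cells 0.01, with 11 of 21 above 1. Over all genes the medians were between -0.02 and 0.06 in the 8 classes. Il7r, the interleukin 7 receptor gene, which FOXO factors also drive, was among the higher ones in CD4 other cells, at 107 CPM at 12 weeks, against 50.7 CPM at 7 weeks, a ratio of 2.11 (1.72 to 2.59). Nfkbia, which encodes the NF-kappaB inhibitor, had ratios of 0.936 (0.883 to 0.992) in CD4 other cells and 0.765 (0.670 to 0.874) in CD8 Ccl5-high cells. Dusp1, a phosphatase gene that is also an immediate early gene, had a ratio of 0.707 (0.573 to 0.874) in CD8 Ccl5-high cells.

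Receptor partners, the chaperones and cofactors of the receptor, had medians between -0.28 and 0.01. In CD4 naive-like cells 15 of 20 were below 1 and 5 at least 1.5-fold lower, against 16.4% of all genes, with Hsp90ab1, the constitutive Hsp90 gene, at 1781 CPM at 12 weeks, against 2282 CPM at 7 weeks (ratio 0.780, 0.724 to 0.841). Hspa8, the constitutive Hsp70 gene, had a ratio of 0.811 (0.757 to 0.869) there. Fkbp4, the relative of Fkbp5 that favours hormone binding, stood at 87.1 CPM and 116 CPM in CD4 other cells, a ratio of 0.748 (0.639 to 0.876).

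**Figure D5:**
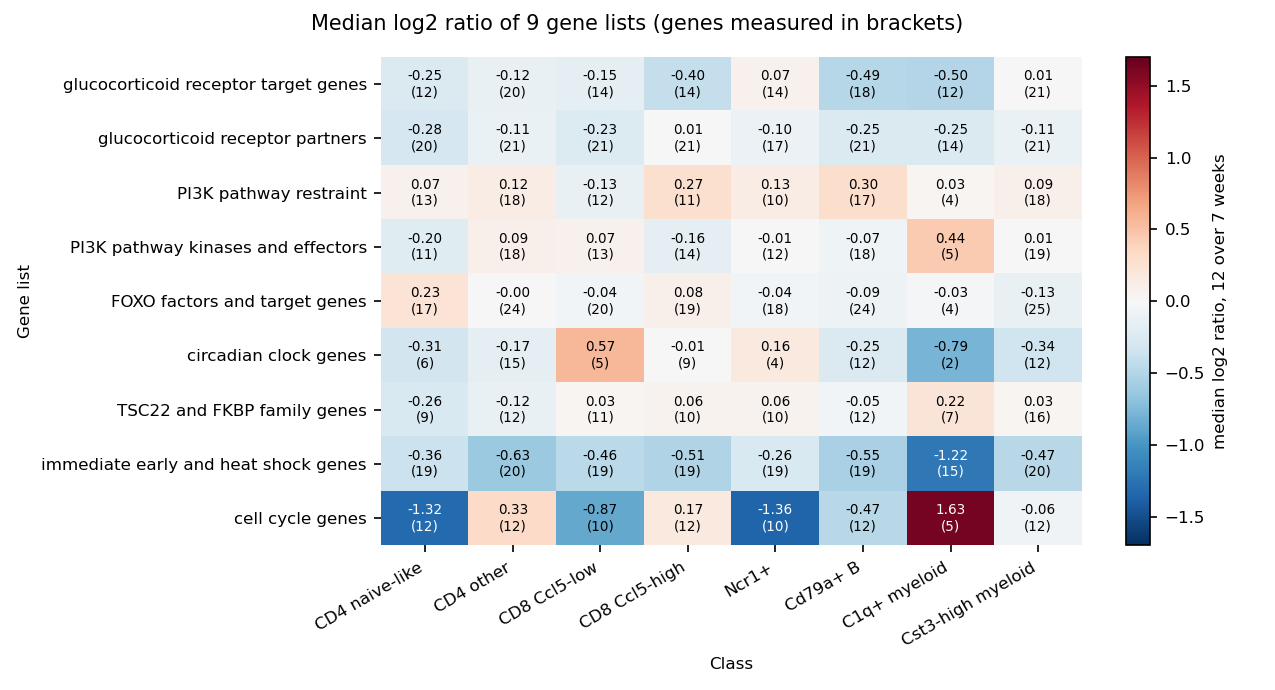
Median log2 ratio of 12 weeks over 7 weeks (colour and upper number) for 9 gene lists (rows) in 8 classes (columns), with the number of genes that had at least 20 UMIs in brackets. The immediate early and heat shock list is below 0 in all 8 classes, while the glucocorticoid and PI3K lists stay nearer to 0 in most.

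The PI3K restraint list of 20 genes had medians between -0.13 and 0.30 and no shared direction in T cells. Inpp4b, a phosphatase gene of the pathway, was at 127 CPM at 12 weeks, against 80.0 CPM at 7 weeks in CD8 Ccl5-high cells, a ratio of 1.59 (1.20 to 2.11), and Pik3ip1 had a ratio of 0.982 (0.402 to 2.63) in that class. The kinases and effectors of the pathway had medians between -0.20 and 0.44, the highest being from 5 genes in C1q+ cells.

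FOXO factors and their targets had 13 of 17 genes above 1 in CD4 naive-like cells, with a median of 0.23 and 5 genes at least 1.5-fold higher, against 12.5% of all genes. The list holds Tsc22d3 and Pik3ip1 themselves, shares Tsc22d3, Il7r, Txnip, Bcl6 and Irs2 with the glucocorticoid list, and shares Lef1 with the gate of that class. Il7r stood there at 240 CPM at 12 weeks, against 127 CPM at 7 weeks, a ratio of 1.89 (1.41 to 2.56). In CD8 Ccl5-low cells 10 of 20 were above 1 and the median was -0.04. Lef1, a naive T cell factor that did not gate that class, had a ratio of 1.74 (1.44 to 2.11) there. Txnip, a FOXO target that binds thioredoxin, was at 143 and 98.2 CPM in CD4 other cells, a ratio of 1.45 (1.25 to 1.69), while Tcf7, another naive T cell factor, had 0.705 (0.631 to 0.787).

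Clock genes had a median of -0.17 in CD4 other cells, with 12 of 15 below 1, while the median was 0.57 in CD8 Ccl5-low cells, with 3 of 5 above 1, and 0.16 in Ncr1+ cells, with 4 of 4 above 1. In CD4 other cells Nfil3, a clock-linked repressor gene, was at 11.8 CPM at 12 weeks, against 25.6 CPM at 7 weeks, a ratio of 0.460 (0.310 to 0.679). Ciart, a further repressor of the clock, was at 7.20 and 14.2 CPM in CD4 other cells, a ratio of 0.507 (0.301 to 0.850). Bhlhe40, also a clock repressor, had 157 and 160 CPM there, a ratio of 0.980 (0.864 to 1.11). The hour at which the mice were sampled was not given. Within the TSC22 and FKBP families, Tsc22d1, a leucine zipper relative of Tsc22d3, was at 16.1 and 6.90 CPM in CD4 other cells (2.33, 1.35 to 4.23) and at 52.3 and 25.1 CPM in CD8 Ccl5-low cells (2.08, 1.16 to 4.0). Fkbp1a, the abundant small member of its family, had 329 and 337 CPM in CD4 other cells (0.978, 0.897 to 1.07).

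Immediate early and heat shock genes, which respond within minutes to stress and to tissue handling, were lower at 12 weeks as a list in every class. Their medians were between -1.22 and -0.26, and in CD4 other cells 18 of 20 were below 1 and 11 at least 1.5-fold lower, against 9.49% of all genes. Ier5, an immediate early gene, was at 37.2 CPM at 12 weeks, against 193 CPM at 7 weeks in that class, a ratio of 0.193 (0.160 to 0.231). The whole list summed to 42.6 UMIs per 10000 at 12 weeks and 53.6 at 7 weeks there. In the cells of each class below its median share of these genes, the Tsc22d3 ratio was 2.02 (1.51 to 2.73) in CD4 other cells, 2.36 (1.63 to 3.53) in CD4 naive-like cells, 3.65 (2.35 to 5.94) in CD8 Ccl5-low cells and 2.02 (1.59 to 2.59) in B cells. It was 0.809 (0.469 to 1.45) in CD8 Ccl5-high cells, 1.24 (0.929 to 1.68) in Cst3-high cells and 1.35 (0.785 to 2.32) in Ncr1+ cells. In the same cells the Fkbp5 ratio was 0.658 (0.394 to 1.11) in CD4 other, 0.487 (0.233 to 1.06) in CD8 Ccl5-high and 0.746 (0.336 to 1.77) in Cst3-high cells. The Per1 ratio was 0.562 (0.290 to 1.1) in CD4 other, 0.907 (0.390 to 2.45) in B and 0.284 (0.121 to 0.650) in Cst3-high cells.

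Transcripts of acinar and endocrine cells, which the sort was meant to leave out, also differed between the libraries. Acinar genes summed to 2.83 UMIs per 10000 at 12 weeks and 0.139 at 7 weeks in CD4 naive-like cells, and to 2.52 and 0.287 in CD8 Ccl5-low cells. Among cells without any such UMI, the Tsc22d3 ratio was 2.71 (1.93 to 3.79) in CD4 other cells and 1.27 (0.837 to 1.89) in CD8 Ccl5-low cells, where 30 cells at 12 weeks and 52 at 7 weeks were left. In CD8 Ccl5-high cells it was 0.565 (0.215 to 1.26), from 24 and 61 cells, which turns the direction of that ratio. The same cells gave 0.575 (0.167 to 1.61) for Nr3c1 in CD8 Ccl5-low cells, 0.363 (0.0412 to 1.5) for Nr3c1 in CD8 Ccl5-high cells, 0.473 (0.121 to 1.34) for Fkbp5 in CD4 other cells and 1.85 (0.838 to 3.87) for Pik3ip1 in CD4 other cells, all with intervals that included 1. Without barcodes holding 100 or more hormone UMIs, the Tsc22d3 ratio was 2.08 (1.72 to 2.53) in CD4 other cells. Cell cycle genes summed to 5.21 and 11.4 UMIs per 10000 in CD4 naive-like cells, and without cycling cells the Tsc22d3 ratio there was 1.66 (1.32 to 2.11).

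Across the 16 levels of 8 classes at 2 ages, the genes most like each member were found among 7405 genes, as a description over levels that share libraries and cells. For Tsc22d3 they included Plaur (r = 0.858) and Alkbh1 (0.838). Pik3ip1 was followed by Dtx1 (0.904), Eef1b2 (0.889) and Dapl1 (0.881), the last a gate gene of the CD4 naive-like class. Per1 ran with Ccnl1 (0.909), Tbl1xr1 (0.864) and Zranb1 (0.853), and Nr3c1 with Sema4b (0.878), Tmem251 (0.836) and Fam43a (0.769). Fkbp5 ran with Mbnl3 (0.918), Rnf4 (0.902) and Rhot2 (0.902), at levels near the 10 CPM added before the logarithm. Between members, r was 0.713 for Tsc22d3 with Pik3ip1, 0.442 with Nr3c1, -0.267 with Per1 and -0.366 with Fkbp5.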

How the data were processed

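The authors deposited 1 matrix of UMI counts per gene and barcode for each library, whole numbers that were not normalized. Cell Ranger 1.3.1 and mm10 are named per the submitters' processing notes, and the gene annotation is not given in the sources used here. Barcodes with at least 200 genes and at most 10% mitochondrial UMIs were kept, and the highest doublet scores (Scrublet method, rebuilt) were removed up to 0.8% per 1000 barcodes. The 5 genes and all gene lists were chosen with earlier results of these data known.

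Classes followed the UMI gates in the report, could overlap and were not clustered. UMIs were summed per class and library and divided by the class total (CPM, UMIs per 1000000). Intervals are exact at 95% (Poisson for a sum, conditional binomial for a ratio, Clopper-Pearson for a share) and cover counting error only. With 1 library per age there was no test between ages. A gene counted as 1.5-fold higher or lower needed 20 UMIs over both libraries. Shares were taken after thinning each cell to 3000 UMIs. Ratios were also combined over 5 strata of cell depth with Mantel-Haenszel weights and an approximate interval, added after the data were seen. The genes named from each list were the 2 with the most UMIs and the 2 whose ratio interval lay furthest from 1, in the CD4 and CD8 classes, and part of them is given; some named genes are not reported here. Each ratio was recomputed under 12 other settings and 6 more chosen after the data were seen. Likeness between genes was the Pearson r of log2(CPM + 10) over class and age. The ratio and interval were tested on simulated counts. Python 3.11.15, numpy 2.4.6, scipy 1.17.1, pandas 2.3.3, scikit-learn 1.9.0 and matplotlib 3.10.9 were used.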

Additional observations from a re-analysis of the deposited data

How the results depend on the processing

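Of the 34 ratios of members with at least 20 UMIs, 32 were recomputed under up to 18 alternatives, 6 of them added after the data were seen. The 2 ratios of the C1q+ class, with under 50 cells, were combined over depth strata only and are not counted here. Of 449 recomputed ratios, 422 moved by less than their counting interval, 26 moved further and 1, reported at more than 1.5-fold, ended on the other side of 1, and 85 more had under 20 UMIs or 20 cells and are not given. In all, 47 recomputed values of 13 ratios lay on the other side of 1 from the reported one, and for 46 of them the reported interval included 1; the other was Nr3c1 in CD4 other cells. The ratio reported at more than 1.5-fold was Fkbp5 in B cells, at 1.03 in exclusive classes, where Fkbp5 in Cst3-high cells was 2.61 and Tsc22d3 in CD4 other cells 2.92. Limiting cells to 4000 to 8000 UMIs gave Tsc22d3 ratios of 1.44 in CD4 naive-like, 1.44 in CD8 Ccl5-low and 1.15 in B cells. Depth strata gave 1.39 and 1.16 for Tsc22d3 in CD4 naive-like and B cells and 1.09 for Pik3ip1 in CD4 naive-like cells. Thinning gave 0.544 for Nr3c1 in CD8 Ccl5-high cells. Tsc22d3 was 1.78 in Cst3-high cells without cycling cells, and 2.63 in CD8 Ccl5-low cells without the 5 highest cells. Without cells holding 10 or more immediate early and heat shock UMIs, Nr3c1 was 1.3 in CD4 other and 0.799 in B cells, and Pik3ip1 1.13 in CD8 Ccl5-low and 1.97 in B cells. In cells below the class median of those genes, Tsc22d3 was 2.36 in CD4 naive-like, 3.65 in CD8 Ccl5-low and 2.02 in B cells, and Pik3ip1 1.88 in B cells. Without cells holding an acinar or endocrine UMI, Tsc22d3 was 2.71 in CD4 other, 1.27 in CD8 Ccl5-low and 0.565 in CD8 Ccl5-high cells, Nr3c1 0.575 and 0.363 in those CD8 classes, and Fkbp5 0.473 and Pik3ip1 1.85 in CD4 other cells. The cause of these moves was not tested.

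A minimum of 50 UMIs in place of 20 lowered the number of genes at least 1.5-fold apart by over 1.5 times in each class and direction. Genes with 50 UMIs are a part of those with 20, so these counts could only fall. The number of genes measured at 50 UMIs is not given here, so the counts do not show whether the share changed. In CD4 naive-like cells 270 genes were higher and 375 lower, against 786 and 1027, and in CD4 other cells 474 and 590, against 869 and 939. In CD8 Ccl5-low cells the counts were 322 and 343, against 851 and 917, and in CD8 Ccl5-high cells 380 and 324, against 841 and 741. Ncr1+ cells had 199 and 240, against 706 and 761, B cells 489 and 600, against 908 and 1081, C1q+ cells 268 and 177, against 746 and 624, and Cst3-high cells 657 and 693, against 1306 and 1169.

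No paired analysis was possible because each age has 1 library. Depth limits Fkbp5 and Per1 most, since their class totals were at most 59 UMIs in either library.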

Other observations

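Cells outside the 8 classes also held more Tsc22d3 and Pik3ip1 at 12 weeks. Their cell types at each age were not examined, so these ratios may also take in a change of make-up. The 533 cells in no class at 12 weeks had 187 CPM of Tsc22d3, against 122 CPM in 255 cells at 7 weeks, a ratio of 1.53 (1.31 to 1.80), and 59.9 CPM of Pik3ip1, against 26.8 CPM, a ratio of 2.23 (1.61 to 3.15). Among those with 3 or more cell cycle UMIs, Tsc22d3 stood at 45.6 CPM (73 cells) and 36.7 CPM (44 cells).

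Cells with at least 2 UMIs of Siglech, a gene of plasmacytoid dendritic cells, numbered 51 at 12 weeks and 30 at 7 weeks. Their Pik3ip1 level was 108 CPM at 12 weeks, against 40.3 CPM at 7 weeks, a ratio of 2.69 (1.42 to 5.43), and their Tsc22d3 level 154 and 99.2 CPM, a ratio of 1.55. CD8 T cells with 4 to 9 Ccl5 UMIs, between the low and high gates, had 81.3 CPM of Tsc22d3 at 12 weeks (29 cells) and 19.9 CPM at 7 weeks (13 cells), the second from 4 UMIs.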
